A study of Mus musculus with 22 samples.

Results

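The 12 arrays described here measured the hypothalamus of lean mice that received only the vehicle, dimethyl sulfoxide (DMSO). They were chosen because their titles name DMSO, and they are 12 of the 22 arrays of the series; the other 10 came from mice given celastrol, a plant triterpenoid studied for its effect on feeding and body weight. Per the labels, all animals were male C57BL/6J mice, 8 weeks old, lean and kept on normal chow for 2 weeks. The vehicle was injected into the peritoneum at 25 µl per day, and 4 arrays each were made after 6 h, 1 day and 4 days. Each title carries a biological replicate number from 1 to 4. The labels do not state whether an array holds the RNA of 1 animal or of several. No contrast between DMSO and celastrol was made. The text gives which genes gave high or low signal in this tissue, and how far arrays of the same time lay apart.

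The hypothalamus is a small region at the base of the brain that controls feeding, body temperature, water balance, sleep and, through the pituitary gland that hangs below it, the hormones of growth, reproduction, thyroid and stress. It does so with many small groups of peptide-making neurons, set among astrocytes, myelinating oligodendrocytes, microglia and blood vessels. Its floor borders the third ventricle, the meninges and the pituitary stalk, and its upper edge borders the thalamus, so a dissected piece can carry some of each.

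Values are log2 intensities, so that a difference of 1 is a 2-fold difference in signal. An array's brightness for a gene depends on how well its probes bind as well as on the amount of RNA, so a rank across genes orders signals and not numbers of molecules. The array carried 18704 genes with 1 symbol. As a reference for weak signal, the 95th percentile of 1292 olfactory, vomeronasal and taste receptor, keratin-associated protein and beta-defensin genes was taken, which was 7.25; the median of those genes was 5.66. Over all genes the median level was 8.64, the 25th percentile was 7.11 and the 95th was 11.6. In every one of the 12 arrays 12956 genes (69.3%) exceeded the reference level, 4427 lay below it in every array, and 1321 lay on both sides. By their mean, 13580 genes (72.6%) were above it. Array medians lay between 8.58 and 8.63. Each array correlated with those of its own time at 0.992 to 0.996 on average, and with those of the other times at 0.991 to 0.995.

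Some arrays stood apart in a small number of genes. The array labelled 1 day replicate 3 held 35 genes, and 4 days replicate 4 held 26, that lay more than 0.5 from the mean of their time, whereas the other 10 arrays held between 2 and 15 such genes. The genes concerned are described further on, with their spread when an array is left out. Another array, 1 day replicate 1, correlated least on average, at 0.992 with its own time and 0.991 with the other times. It gave the highest values of Npy, Hcrt, Pmch and Apoe and the lowest of Syn1.

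The 20 highest named genes included neuronal and glial genes beside genes that every cell uses; Snap25 is on the neuron list and Cst3 on the astrocyte list. Vsnl1, a calcium sensor of neurons, had a mean of 14.43 ± 0.0262 (within-time SD, n = 12) and ranged from 14.40 to 14.48 around a median of 14.43. Snap25, part of the complex that releases synaptic vesicles, averaged 14.12 ± 0.0254 and ranged from 14.08 to 14.15. Genes known to be strong in astrocytes and other glia included Cst3 (the protease inhibitor cystatin C) at 14.19, Sparcl1 (a secreted matrix protein) at 14.06, Ndrg2 at 14.05 and Sparc at 13.88. These genes varied little between arrays: the widest range among them, that of Ndrg2, ran from 14.00 to 14.14.

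Household and metabolic genes filled most of the other leading ranks. Actb, which encodes cytoplasmic actin, averaged 14.35, the ferritin heavy chain gene Fth1 14.18, and the metal-binding protein gene Mt2 14.03. Protein synthesis and folding were represented by Rps6 at 14.00, Rpl21 at 13.95, the elongation factor gene Eef1a1 at 13.90 and the chaperone gene Hspa8 at 13.98. Membrane and energy genes included Gnb1 (a G protein subunit) at 13.99, the reticulon gene Rtn3 at 13.99, the respiratory chain gene Cox6c at 13.97, the lipid desaturase gene Scd2 at 13.94 and the sodium pump subunit gene Atp1b1 at 13.86. Zwint, of neither kind, averaged 13.80. Of the 100 highest genes, 7 encode ribosomal proteins, out of 57 such genes measured with 1 symbol. Mt2 was the most variable of the 20 highest named genes, from 13.85 to 14.17, with a within-time SD of 0.062.

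The highest value of all, that of Baiap2l1, depended on the probe set. This gene, which encodes an actin-binding adaptor, had 3 probe sets. The one with the highest signal, 10445185, averaged 14.88 and ranged from 14.79 to 14.95, and a second, 10536170, averaged 12.88; the annotation lists 2 non-coding and 0 coding RefSeq transcripts for each. The probe set 10535559, which lists 1 coding transcript, averaged 6.99, below the reference level. The first rank of Baiap2l1 thus comes from a probe set that lists no coding transcript. A similar gap was seen for Stmn3, a regulator of microtubules in neurons, with 13.27 and 6.49 from its 2 probe sets. By contrast, the 8 probe sets of Rps6 lay between 13.60 and 14.00 and the 9 of Rpl21 between 13.04 and 13.95.

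**Figure D1:**
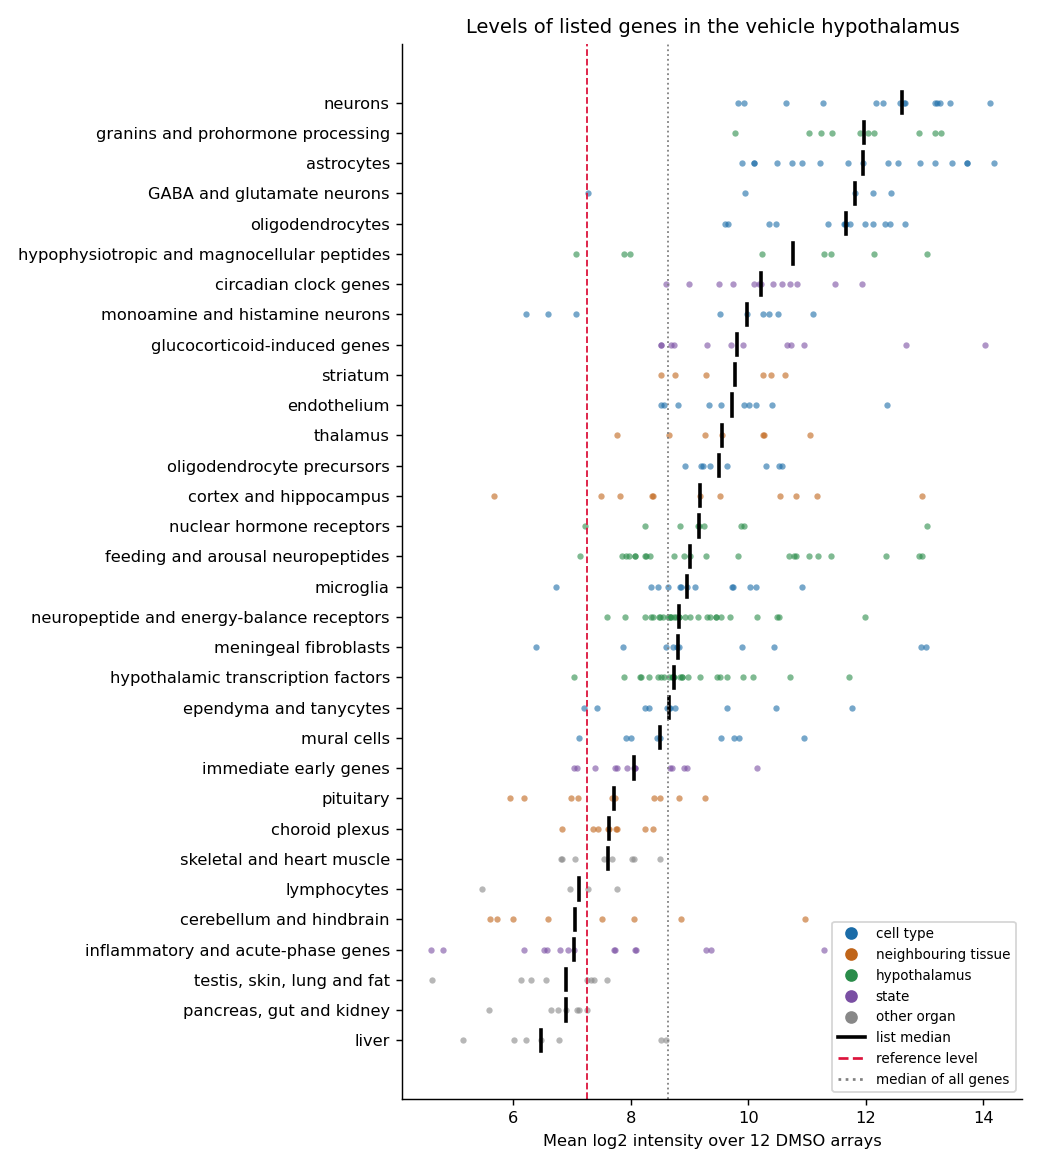
Mean log2 intensity over the 12 DMSO arrays (x axis) of each measured gene, by list (y axis, ordered by the list median); each point is 1 gene, the black bar the list median, the dashed line the reference level of 7.25 and the dotted line the median of all genes, 8.64. Lists of neurons, prohormone processing, astrocytes and oligodendrocytes lie to the right, and lists of liver, pancreas, gut and kidney lie mostly left of the dashed line.

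Marker lists were read against the label of brain tissue from male mice. Counts of listed genes above the reference level stand beside 69.3% of all genes in every array and 72.6% by their mean. All 14 measured neuron genes, all 17 astrocyte genes and all 14 oligodendrocyte genes exceeded the reference level in every array, with list medians of 12.6, 11.96 and 11.66 against 8.64 for all genes. Syt1, the calcium sensor of vesicle release, averaged 13.44, the lipid carrier gene Apoe 13.73, the glycolytic gene Aldoc 13.72 and the myelin genes Mbp and Cnp 12.67 and 12.33. Gfap, the intermediate filament gene of astrocytes, averaged 10.49 and ranged from 10.26 to 10.67. The Y-linked genes Eif2s3y, Uty and Kdm5d averaged 10.26, 9.93 and 9.93, and Xist, which is transcribed from the inactive X chromosome, stayed below the reference level in every array, with a highest value of 5.98.

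Less abundant cell types gave intermediate levels. Of the microglia genes 12 of 13 were above the reference level by their mean, with a list median of 8.96; C1qb of the complement cascade averaged 10.92 and the growth factor receptor gene Csf1r 10.13, while Aif1 averaged 6.74. All 10 endothelial genes were above it, led by the glucose transporter gene Slc2a1 at 12.37 and followed by the organic anion transporter gene Slco1a4 at 10.41 and the tight junction gene Cldn5 at 10.13. All 8 genes of oligodendrocyte precursors were above it, led by the growth factor receptor gene Pdgfra at 10.58 and the transcription factor gene Olig1 at 10.53. Of the genes of ependyma and tanycytes, the cells that line the ventricle, 10 of 11 exceeded it by their mean, led by Vim at 11.77 and the orphan receptor gene Gpr50 at 10.48. In bulk tissue, fewer cells of a type and less RNA per cell cannot be told apart.

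Lists of other organs gave lower signal, with medians from 6.47 to 7.61. None of the 7 measured genes of pancreas, gut and kidney was above the reference level by its mean; Cela3b, a pancreatic elastase gene, averaged 7.25 and was above it in 6 arrays. Of the liver genes 2 of 7 were above it, Apoa1 at 8.51 and Apoa2 between 8.40 and 8.88, while albumin (Alb) averaged 6.02. In the skeletal and heart muscle list 5 of 8 genes were above it in every array, with Acta1 at 8.49 and Ckm at 8.06. In the list of testis, skin, lung and fat 4 of 8 were above it by their mean, and in that of lymphocytes 2 of 4. Prm2 of the former list averaged 7.60 and exceeded it in 12 arrays, so passing the reference level does not by itself show expression. The T cell receptor gene Cd3e averaged 7.76, and the B cell gene Ms4a1 5.48. The lists of neighbouring brain regions differed in how many genes were above it. In the cortex and hippocampus list 10 of 11 genes were above the reference level by their mean and 9 in every array, with a median of 9.18; in the striatum list all 6 were above it in every array, with a median of 9.77. Within the cortex and hippocampus list levels differed widely. Camk2a, abundant in forebrain excitatory neurons, averaged 12.96, whereas Slc17a7 and Tbr1, which mark cortical excitatory neurons, averaged 7.82 and 7.49, and Neurod6 averaged 5.68. In the cerebellum and hindbrain list 4 of 8 genes were above the reference level, and the granule cell gene Gabra6 averaged 5.61.

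Some peptide precursors of the hypothalamus gave bright signal, while the list of feeding and arousal peptides as a whole, with a median of 9.01, lay near the 8.64 of all genes. Sst, the precursor of somatostatin, which holds back growth hormone release, averaged 13.05 ± 0.112 and ranged from 12.88 to 13.21 around a median of 13.05, at rank 117 of 18704. Pmch, the precursor of melanin-concentrating hormone, averaged 12.95 ± 0.127, and Hcrt, the precursor of the wake-promoting orexins, 12.91 ± 0.145; both are made in the lateral hypothalamus. The opioid precursor gene Penk averaged 12.35 and had the narrower within-time SD of 0.0379. Its times did not overlap, with means of 12.36 at 6 h, 12.45 at 1 day and 12.23 at 4 days. Limma's F test over the times gave it an adjusted p of 0.193.

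The hormones of magnocellular neurons followed, with Oxt (oxytocin) at 12.14 ± 0.168 and Avp (vasopressin) at 11.41 ± 0.0875. Oxt ranged from 11.80 to 12.36 and Avp from 11.23 to 11.57. Trh, which drives thyroid-stimulating hormone, averaged 11.29, and Ghrh, which drives growth hormone, 10.23. Crh, the releasing hormone of the stress axis, averaged 7.07 and stayed below the reference level in all 12 arrays, from 6.97 to 7.16. It was the single member of the 8 hypophysiotropic and magnocellular genes below that level. Its signal on this probe set therefore gave no level above the reference.

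Of 23 measured feeding and arousal peptide genes, 22 exceeded the reference level in all 12 arrays; the other one, Nmu (neuromedin U), averaged 7.13. Npy, a peptide of arcuate neurons that promotes feeding, read 10.35, 10.57, 10.94 and 10.73 at 6 h. It read 11.47, 10.68, 10.90 and 11.00 at 1 day, and 11.07, 10.61, 10.83 and 10.61 at 4 days. Its times overlapped, and its within-time SD of 0.269 was above 0.226, the 99th percentile over genes above the reference level. Pomc, the precursor of the melanocortin that restrains feeding, averaged 8.73 ± 0.196 and ranged from 8.33 to 9.18 around a median of 8.70. Cartpt, made in the same and other neurons, averaged 10.69 ± 0.119. Agrp was not analysed here.

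**Figure D2:**
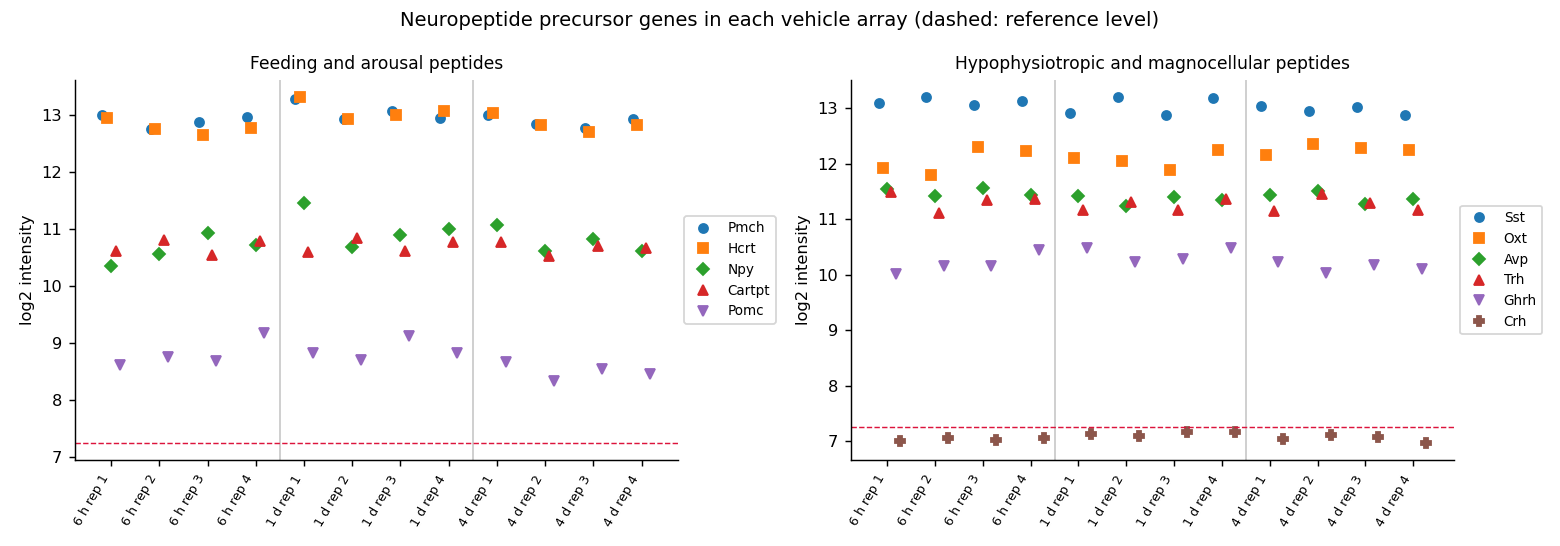
Log2 intensity (y axis) of 11 peptide precursor genes in each of the 12 DMSO arrays (x axis; 4 each at 6 h, 1 day and 4 days; points of different genes are shifted sideways slightly), with the reference level of 7.25 dashed. Pmch and Hcrt lie close to 13 in every array, Npy spans 10.35 to 11.47, and Crh lies below the dashed line throughout.

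Peptides are cut from their precursors by a shared set of enzymes and stored with granins, and this machinery gave bright signal. All 10 measured genes exceeded the reference level in every array, with a list median of 11.97. Their median within-time SD was 0.0645, near the 0.0622 of the brightest of 4 equal groups of genes above the reference level. Pcsk1n, an inhibitor of the convertase PC1, averaged 13.28, carboxypeptidase E (Cpe) 13.17 and chromogranin A (Chga) 12.90. The convertase gene Pcsk1 averaged 11.03 and Vgf, a granin-like precursor, 9.78.

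The genes of receptors that read these peptides and hormones of energy balance gave signal above the reference level. All 29 measured receptor genes of neuropeptides and energy balance exceeded it in every array, against 69.3% of all genes. Their list median of 8.82 lay near the 8.64 of all genes. Levels ran from 7.59 (Npy5r) to 11.99 (Cntfr, the receptor subunit for ciliary neurotrophic factor). The incretin receptor gene Glp1r averaged 10.53 and the insulin receptor gene Insr 10.50, with 10.06 from a second probe set of Insr. Mc4r, the melanocortin receptor of satiety circuits, averaged 8.64 and ranged from 8.53 to 8.83. Lepr, the leptin receptor gene, averaged 7.90 ± 0.173 and ranged from 7.59 to 8.19, above the reference level in 12 of 12 arrays.

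Regulators that pattern the hypothalamus were also mostly above the reference level. Of 26 measured transcription factor genes 25 exceeded it in every array, against 69.3% of all genes. The list median was 8.73, and the other gene, Lhx8, averaged 7.04. Arnt2, the partner of Sim1 in the paraventricular nucleus, averaged 11.72, Fezf1 of the ventromedial nucleus 10.72 and Dlx1 of inhibitory neurons 10.08. Among nuclear receptors the thyroid hormone receptor gene Thra averaged 13.04, the glucocorticoid receptor gene Nr3c1 9.93 and the oestrogen receptor gene Esr1 8.84. The other oestrogen receptor gene, Esr2, averaged 7.23, below the reference level, and was above it in 5 arrays.

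Of the 5 measured genes of GABA and glutamate neurons 4 exceeded the reference level in every array. The GABA-synthesizing enzymes Gad2 and Gad1 averaged 12.43 and 11.81, and the glutamate transporter of subcortical neurons, Slc17a6, averaged 12.13. The transporter gene Slc17a8 averaged 7.28 and was above the reference level in 8 arrays. Of 9 genes of monoamine and histamine neurons 6 exceeded the reference level in every array, near the share of 69.3% over all genes. The exceptions were the noradrenaline enzyme gene Dbh at 6.59 and the serotonin genes Tph2 and Slc6a4 at 6.23 and 7.07.

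Genes that respond to handling, stress hormones and time of day were at levels that differed by group. All 13 clock genes were above the reference level in every array with a list median of 10.2, led by the repressors Nr1d1 at 11.93 and Nr1d2 at 11.47; Nr1d2 had a within-time SD of 0.0215. The 12 glucocorticoid-induced genes had a list median of 9.80. Of the immediate early genes, which neurons switch on within minutes of activity, 12 of 14 were above the reference level by their mean, with Dusp1 at 10.15, Egr1 at 8.96 and Fos at 7.39. In the inflammatory and acute-phase list 7 of 15 genes were above it, led by Serpina3n at 11.30, while Lcn2 averaged 6.94, Tnf 6.53 and Il6 4.60.

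The spread between arrays of the same time was small for most genes. The within-time SD, pooled over the 3 times with 9 degrees of freedom, had a median of 0.0837 over the 13580 genes above the reference level, a 95th percentile of 0.158 and a 99th percentile of 0.226. It was below 0.1 for 9178 genes (67.6%). Dim genes varied more: in 4 equal groups of these genes, ordered from the dimmest to the brightest, the median SD was 0.113, 0.0889, 0.0751 and 0.0622. The median SD was 0.0842 among 6 h arrays, 0.0780 among 1 day arrays and 0.0641 among 4 days arrays.

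The steadiest genes had diverse roles. Rabgap1, a regulator of small GTPases, had a within-time SD of 0.0177 at a level of 11.40, from 11.34 to 11.43. The reticulon gene Rtn1 had 0.0185 at 13.31, the splicing factor gene Mbnl2 0.0187 at 12.84, Scd2 0.0194 at 13.94 and Rtn3 0.0197 at 13.99.

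**Figure D3:**
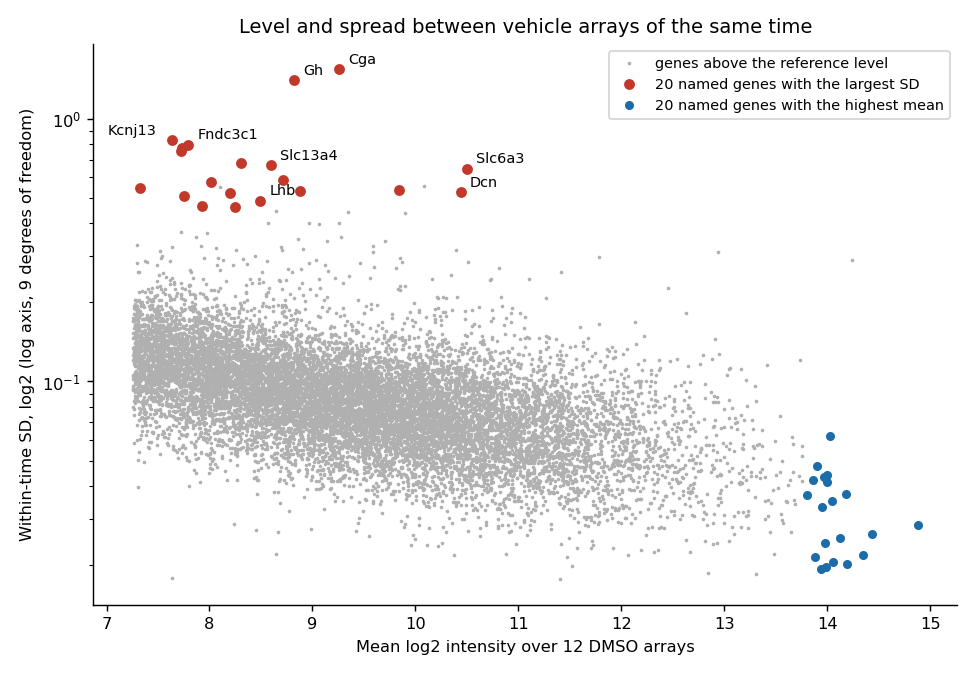
Within-time SD (y axis, log scale) against mean log2 intensity over the 12 DMSO arrays (x axis) for the 13580 genes above the reference level, with the 20 named genes of largest SD in red and the 20 named genes of highest mean in blue. Most genes lie near an SD of 0.0837, whereas Cga and Gh lie above 1 and the 20 brightest named genes lie at or below 0.062.

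Only 19 of the 13580 genes had a within-time SD above 0.5, and 2 of them, both pituitary hormone genes, had one above 1. Cga encodes the alpha subunit shared by thyroid-stimulating hormone, luteinizing hormone and follicle-stimulating hormone. It read 7.33, 9.87, 10.63 and 11.59 at 6 h, 10.32, 9.66, 9.81 and 7.43 at 1 day, and 10.14, 7.36, 7.35 and 9.60 at 4 days. In 4 arrays Cga lay just above the reference level, and in the other 8 it lay above 9.

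Gh, growth hormone, was high in a different set of arrays. It read 7.60, 10.57, 9.02 and 11.48 at 6 h, 7.82, 7.93, 10.98 and 8.06 at 1 day, and 7.89, 7.52, 9.28 and 7.69 at 4 days. Prl, prolactin, was below the reference level in 9 arrays and read 11.00 in 6 h replicate 4, 8.46 in 1 day replicate 3 and 7.46 in 6 h replicate 3. The array 6 h replicate 4 was the highest for Cga, Gh and Prl and also for Lhb, the beta subunit of luteinizing hormone, at 9.92 against 8.13 to 8.67 in the other 11 arrays. Without it the within-time SD of Lhb went from 0.488 to 0.214 and that of Prl from 1.35 to 0.770, while those of Cga and Gh stayed above 1 whichever array was left out.

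The rest of the pituitary list was read in the same arrays. Of its 10 measured genes 6 were above the reference level in every array, against 69.3% of all genes. The average of those 6, which include Cga, Gh and Lhb, ran from 7.73 in 4 days replicate 2 to 9.55 in 6 h replicate 4. Without Cga, Gh and Lhb the average of the 3 left, Ghrhr, Tbx19 and Pitx1, ran from 7.77 to 8.20 and was 8.10 in 6 h replicate 4. The hormone gene Tshb and the receptor gene Gnrhr lay below the reference level in all 12 arrays, with means of 5.96 and 6.19. Fshb averaged 6.99 and was above it in 2 arrays. In 7 of the 10 genes, Cga, Gh and Lhb among them, the within-time SD was above 0.158, the 95th percentile of genes above the reference level. Pituitary tissue in the dissected pieces was not tested as a cause of the spread.

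Promoters of the 3 hormone genes with an entry in the RefSeq table (Prl, Cga and Lhb) are shown because all 3 read highest in 6 h replicate 4; Gh had no entry. Each line is the 250 bases before the start of the gene in GRCm38.p6, 5′ to 3′ on the plus strand, in lower case, with motif matches in capitals. Prl lies at chr13:27057320-27057569, Cga at chr4:34893529-34893778 and Lhb at chr7:45420696-45420945.
Prl: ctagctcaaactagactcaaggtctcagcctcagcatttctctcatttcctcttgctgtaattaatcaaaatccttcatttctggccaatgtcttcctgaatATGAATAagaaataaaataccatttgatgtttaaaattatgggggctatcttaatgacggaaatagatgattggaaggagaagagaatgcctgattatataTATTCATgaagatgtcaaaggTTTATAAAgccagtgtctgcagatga
Cga: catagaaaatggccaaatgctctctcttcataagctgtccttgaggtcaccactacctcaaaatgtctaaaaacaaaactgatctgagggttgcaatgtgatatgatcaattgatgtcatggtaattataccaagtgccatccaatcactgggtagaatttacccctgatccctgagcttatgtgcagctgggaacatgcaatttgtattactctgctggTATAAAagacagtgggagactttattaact
Lhb: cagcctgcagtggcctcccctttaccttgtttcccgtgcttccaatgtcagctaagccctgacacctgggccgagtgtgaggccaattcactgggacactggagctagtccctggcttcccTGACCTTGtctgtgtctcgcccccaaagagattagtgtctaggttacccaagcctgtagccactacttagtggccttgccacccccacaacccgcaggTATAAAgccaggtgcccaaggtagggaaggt
Both strands were searched for TATNCAT (the core bound by the pituitary factor POU1F1), TATAAA (the TATA box), TGACCTTG (bound by SF1) and TGACGTCA (the cAMP response element). Prl held 2 matches of TATNCAT, at 148 and 47 bases before the start, and 2 overlapping matches of TATAAA on opposite strands. Cga held TATAAA at 30 bases and Lhb at 31 bases before the start, and Lhb held TGACCTTG at 129 bases. Among 32851 promoters of this length 7.92% held TATNCAT, 12.4% TATAAA, 1.33% TGACCTTG and 1.55% TGACGTCA. The matches describe letters and were not tested against the expression values.

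Beside Cga stood genes with a similar pattern, some of them low in the same 4 arrays. The 5 named genes whose deviations from the time means resembled those of Cga most closely were Cyp2f2, Ces1d, Chga, Dcn and Crispld1. Pearson correlations ran from 0.897 to 0.972 over the 12 arrays and from 0.801 to 0.952 without the 2 arrays farthest from the median. The time means still included those 2 arrays, so the second range does not show the likeness apart from them. Because the genes were picked for that likeness, the values are a description. Dcn, the matrix proteoglycan decorin, read 9.75, 9.89, 9.89 and 9.74 in 6 h replicate 1, 1 day replicate 4 and 4 days replicates 2 and 3. In the other 8 arrays it lay between 10.51 and 11.01. Cyp2f2, a cytochrome P450 gene, read 7.53, 7.65, 7.37 and 7.21 in those 4 arrays and 8.46 to 9.11 in the other 8. Chga and Crispld1 overlapped between those 4 arrays and the other 8. Chga read 12.87 in 4 days replicate 2 but 12.84 in 1 day replicate 2. Crispld1 read 8.02 in 1 day replicate 4 but 8.00 in 4 days replicate 1. Fndc3c1, with the fourth largest SD of the named genes, 0.797, read 6.29 in 6 h replicate 1, 6.35 and 7.03 in 4 days replicates 2 and 3, and 7.91 to 8.44 in the other 9 arrays.

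The named genes most like Gh were Prkx, Ccdc43, Plekhf1, Slc33a1 and Stt3b. Pearson correlations ran from 0.837 to 0.909 over 12 arrays and from 0.765 to 0.896 without the 2 arrays farthest from the median. The time means again included those 2 arrays. These genes too were picked for their likeness, so the values are a description. The spread of the genes themselves was small beside the SD of 1.40 of Gh, from 0.0285 for Prkx to 0.212 for Plekhf1. In celastrol arrays Gh was high in 4 days replicate 2 alone, at 11.16 against 7.57 to 8.26 in the other 9, and Prl read 10.33 in that array. There Prkx, at 10.21, and Plekhf1, at 8.69, were at their highest celastrol value, but Ccdc43, at 8.44, Slc33a1, at 8.93, and Stt3b, at 11.27, were not.

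The celastrol arrays held a second set of libraries in which these pairs could be read. Cga was 10.41, 8.64, 10.65 and 7.26 in celastrol 6 h replicates, 10.14, 7.75 and 10.02 at 1 day and 7.39, 11.08 and 7.12 at 4 days. Dcn was 10.59, 10.11, 10.84 and 9.83, then 10.55, 9.97 and 10.66, then 9.83, 11.02 and 9.68 in the same arrays. In every celastrol array with Cga above 10, Dcn was above 10.5, and in every one with Cga below 8, it was below 10. Cyp2f2 read 8.23 to 9.12 in the former and 7.29 to 7.91 in the latter. Crispld1 and Chga, picked in the DMSO arrays, overlapped between these sets, as they did between the low and high DMSO arrays. Crispld1 read 7.83 where Cga was 10.41 and 8.20 where Cga was 7.12. Chga read 12.86 to 12.96 in the former set and 12.78 to 12.88 in the latter. Celastrol 6 h replicate 2, with Cga at 8.64, Dcn at 10.11 and Cyp2f2 at 7.92, fell in neither set. Because the other arrays fell into a low and a high set of fewer than 6 each, no correlation over the celastrol arrays is given.

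**Figure D4:**
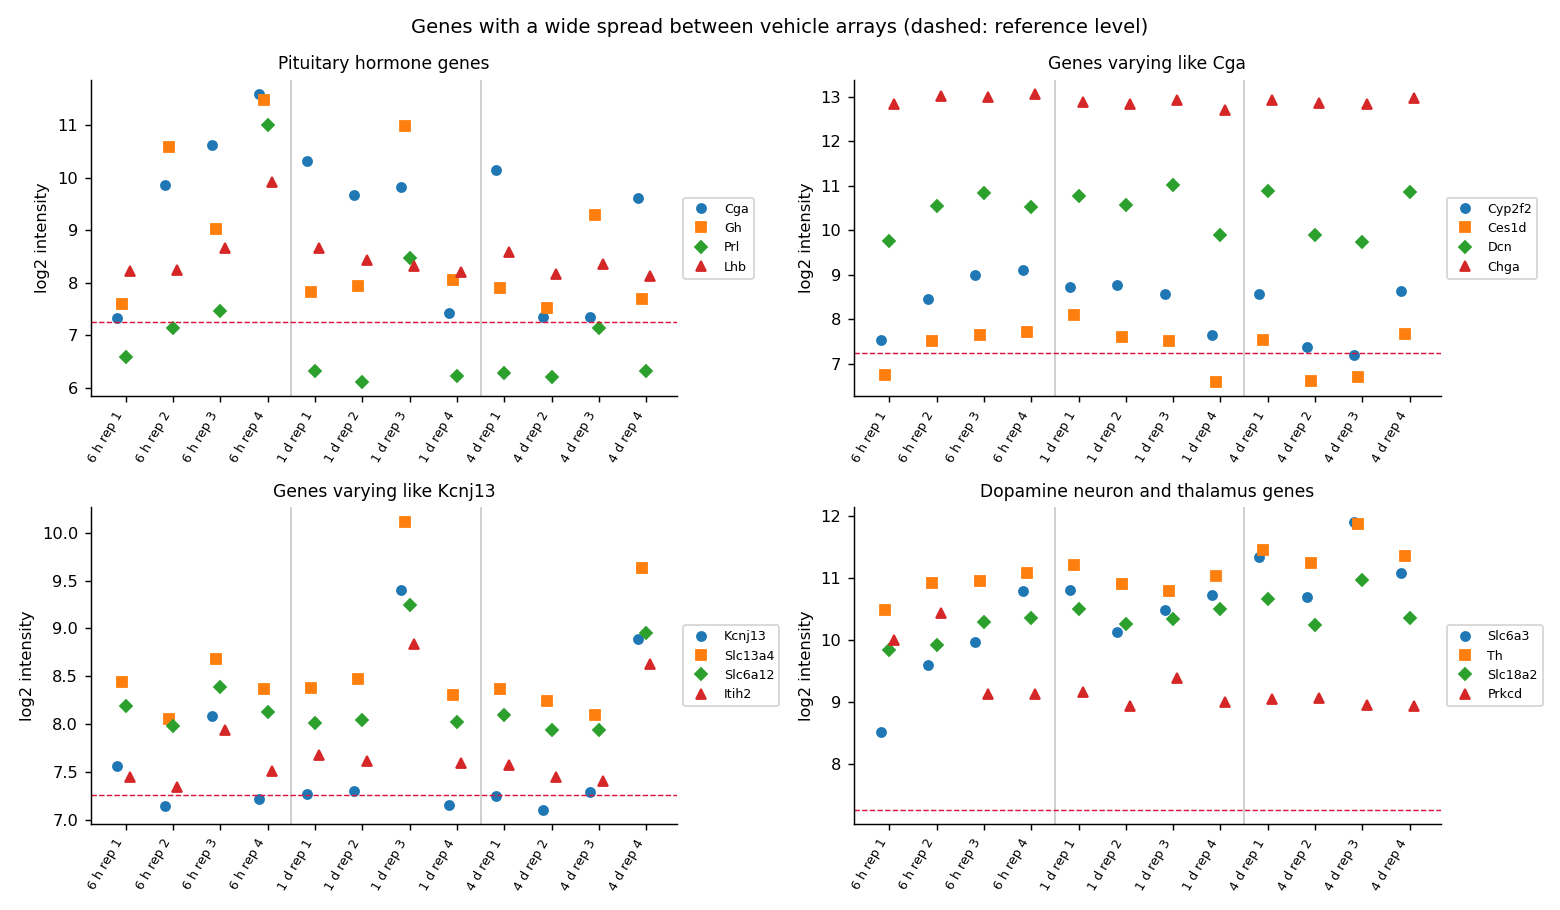
Log2 intensity (y axis) in each of the 12 DMSO arrays (x axis, 4 per time; points of different genes are shifted sideways slightly) for pituitary hormone genes, genes varying like Cga, genes varying like Kcnj13, and dopamine neuron genes with the thalamic gene Prkcd; the dashed line is the reference level of 7.25. Cga, Dcn and Cyp2f2 are low in the same 4 arrays, Kcnj13 and Slc13a4 are high in 1 day replicate 3 and 4 days replicate 4, and Slc6a3 spans 8.50 to 11.90.

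A further group was high in 1 day replicate 3 and 4 days replicate 4. Kcnj13, a potassium channel of choroid plexus epithelium, read 7.57, 7.14, 8.08 and 7.22 at 6 h, 7.27, 7.30, 9.41 and 7.15 at 1 day, and 7.25, 7.10, 7.29 and 8.89 at 4 days. The sulfate transporter gene Slc13a4 reached 10.12 and 9.64 in those 2 arrays and 8.06 to 8.69 elsewhere. Osteoglycin (Ogn), a matrix proteoglycan, read 9.27 and 8.79 in the same arrays, with 6 h replicate 3 next at 8.29. Lubricin (Prg4), which lubricates tissue surfaces, read 9.18 and 8.59 there, and 8.68 in 6 h replicate 3. Other genes of this group among the 20 most variable included the GABA transporter gene Slc6a13 (SD 0.584), Dapl1 (0.573), the proline transporter gene Slc6a20a (0.538), the collagen-binding gene Fmod (0.533), the transcription factor gene Osr1 (0.521) and Aldh1a2 (0.467), which makes retinoic acid. Each of these 6 had its highest and next highest value in the same pair of arrays. So did Itih2 (0.507) and Slc6a12 (0.462), which were also among the 20.

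The 5 named genes most like Kcnj13 were Vtn, Slc6a12, Slc13a4, Slc22a6 and Itih2. Because they too were picked for that likeness, their correlations are a description. Pearson correlations ran from 0.981 to 0.989 over 12 arrays and from 0.906 to 0.955 without the 2 arrays farthest from the median. The time means still included those 2 arrays, so the second range does not show the likeness apart from them. Slc6a12 and Slc22a6 carry betaine and organic anions, Vtn encodes vitronectin and Itih2 a hyaluronan-binding chain. Without 1 day replicate 3 the within-time SD of Kcnj13 went from 0.830 to 0.579 and that of Slc13a4 from 0.665 to 0.465, both still above the 99th percentile of 0.226. In the celastrol arrays 1 library, 4 days replicate 2, read 9.03 for Kcnj13 and 9.71 for Slc13a4, against 6.93 to 7.53 and 8.22 to 8.48 in the other 9.

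Marker lists of the surrounding tissues were read in the same arrays. The average of the 9 meningeal fibroblast genes above the reference level was 10.52 in 1 day replicate 3 and 10.34 in 4 days replicate 4, and 9.60 to 10.03 in the other 10 arrays; 7 of the 10 measured genes of the list had an SD above 0.158. Of 9 choroid plexus genes 8 were above the reference level by their mean, and their average was 8.04 and 7.88 in those arrays, against 7.67 to 7.89 in the others. These lists hold genes of the group itself: without the genes named for their spread or their likeness, the 6 meningeal genes left averaged 10.60 and 10.48 in those arrays against 10.06 to 10.29 in the others, while the 7 choroid plexus genes left averaged 7.84 and 7.74 against 7.72 to 7.88. Vascular lists were read there too. The 7 mural cell genes left without Vtn averaged 9.03 and 8.92 against 8.79 to 8.91 in the others. Their average in 4 days replicate 4 was thus hardly apart from the 8.91 of 1 day replicate 1. The 10 endothelial genes averaged 9.85 and 9.80 against 9.67 to 9.82, so that 4 days replicate 4 overlapped the others. Ttr, the thyroid hormone carrier that choroid plexus makes in great amounts, ranged from 7.12 to 7.59 and read 7.28 and 7.24 in those 2 arrays. The part of these tissues in the spread was not tested.

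Dopamine neuron genes spread widely as well. Slc6a3, the dopamine transporter gene, read 8.50, 9.59, 9.97 and 10.79 at 6 h, 10.80, 10.13, 10.48 and 10.73 at 1 day, and 11.34, 10.70, 11.90 and 11.07 at 4 days. Its lowest array, 6 h replicate 1, was also the lowest for Th, the enzyme that makes the dopamine precursor, at 10.48, and for the vesicle transporter gene Slc18a2, at 9.83. The highest of all 3 genes was 4 days replicate 3, with 11.90, 11.87 and 10.97. The means of Slc6a3 were 9.71 at 6 h, 10.53 at 1 day and 11.25 at 4 days, with overlapping arrays, and limma's F test over the times gave an adjusted p of 0.241 for Slc6a3, 0.220 for Th and 0.333 for Slc18a2. Without 6 h replicate 1 the within-time SD of Slc6a3 went from 0.646 to 0.475.

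Genes of the thalamus varied in yet other arrays. Prkcd, a kinase gene strongly used in thalamic relay neurons, read 10.44 in 6 h replicate 2, and 6 h replicate 1 came next, before the 8.92 to 9.38 of the other 10 arrays. All 7 thalamus genes were above the reference level in every array, and their average was 9.84 and 9.99 in those 2 arrays and 9.35 to 9.65 elsewhere. That average includes Prkcd, by which the 2 arrays were picked out, and no average without it was taken. Thalamic tissue as a cause was not tested.

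The genes that varied widely in DMSO also varied widely in celastrol arrays, which the choice of these genes did not use. All 20 named genes of largest SD had a celastrol SD in the top 5% (at least 0.173), and 19 of them were among the 100 largest. These 20 genes are not 20 separate cases. In celastrol 4 days replicate 2, Cga, Gh, Kcnj13, Dcn, Slc13a4, Slc6a12, Itih2 and Lhb were all at their highest celastrol value. Slc6a12, for example, read 8.75 there and 7.94 to 8.22 in the other celastrol arrays. Cyp2f2, Ces1d and Slc6a3 were not at their highest there. Of the 100 most variable genes of any kind, 50 were shared. Across the 13580 genes the SDs of the DMSO and celastrol arrays correlated with Pearson r = 0.707 and Spearman rho = 0.567, and the mean levels with r = 0.9997; genes are not independent replicates, and all 22 arrays were normalized together. The median SD was 0.0813 in celastrol arrays against 0.0837 in DMSO arrays. Among the 20, Slc6a12 had the lowest celastrol SD, 0.214 against 0.462 in DMSO arrays, and Cga the highest, 1.73 against 1.54.

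**Figure D5:**
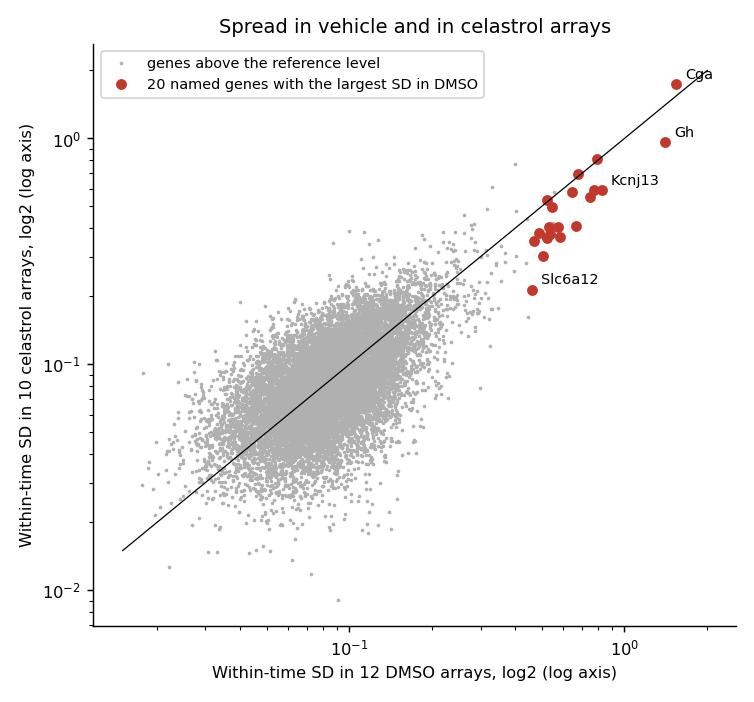
Within-time SD in the 10 celastrol arrays (y axis, log scale) against that in the 12 DMSO arrays (x axis, log scale) for the 13580 genes above the reference level; the 20 named genes of largest SD in DMSO are red, and the line marks equal values. All red points lie above a celastrol SD of 0.173.

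Against this spread, no gene passed the test for a difference between the 3 times of vehicle treatment. With limma's moderated F test over the 12 arrays, 0 of 13580 genes (0%) passed a Benjamini-Hochberg adjusted p under 0.05, the lowest adjusted p being 0.193, while 1756 genes (12.9%) had an unadjusted p under 0.05. With no true difference 679 would fall there on average, so the lack of calls does not show that the times were alike. Limma-trend called 9 genes and a model of all 22 arrays 2. The 5 genes with the smallest p were Naa20, Mgat2, Glra3, Nuak1 and Bambi, each with an adjusted p of 0.193 by limma. Naa20, a subunit of an N-terminal acetyltransferase, read 11.00, 10.95, 10.71 and 10.78 at 6 h, 10.73, 10.64, 10.60 and 10.71 at 1 day, and 10.43, 10.46, 10.40 and 10.42 at 4 days. Its 4 days arrays lay below all others by value, and its group means were 10.86, 10.67 and 10.43.

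The other 4 had differences of means between 0.29 and 0.49. Nuak1, a kinase related to AMPK, averaged 10.95 ± 0.190 at 6 h, 10.46 ± 0.0901 at 1 day and 10.73 ± 0.0735 at 4 days (SD, n = 4 each). The glycine receptor gene Glra3 averaged 9.62, 9.84 and 9.93, the glycan-processing gene Mgat2 9.10, 9.19 and 8.90, and Bambi, a decoy receptor of TGF-beta signalling, 8.28, 8.23 and 7.99. Because these genes were picked as those with the smallest p, their differences describe the edge of the distribution.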

How the data were processed

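Per the labels, hypothalamic RNA was isolated with Trizol, purified on columns and hybridized as biotin-labelled product to Affymetrix arrays. The authors deposited log2 values made with RMA, per the submitters' processing notes, which corrects background, quantile-normalizes and summarizes probes. The RMA version and the probe set definitions it used remain not given in the sources used here. Because quantile normalization gives all arrays 1 distribution, a shift of all genes together cannot be seen.

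The table held 23492 probe sets, of which 20228 had exactly 1 symbol in GEO's annotation of the platform, 1399 several and 1865 none. Several probe sets named 809 genes, for which the brightest by its mean in the 22 arrays was used. The table held 0 columns of other series and 0 identical pairs of arrays. Arrays have no read depth; their number limits the precision. Levels are means over the 12 DMSO arrays. The within-time SD pools the 3 times. Times were compared with limma 3.58.1 in R 4.3.3 (lmFit, eBayes, F test, 9 residual and 5.47 prior degrees of freedom) over the 13580 genes above the reference level; p-values were computed from the deposited values, and the steps were tested on simulated data.

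Members and the 35 lists, with 404 genes, were chosen with earlier results of these data known. Named were the 20 highest and 20 most variable genes, the 5 steadiest, each list's 3 highest and 2 most variable members, 21 chosen precursors, receptors and markers (not all of them analysed here), the 5 time genes with the smallest p and 5 genes most like each of the 3 most variable; predicted and non-coding genes were counted only. List members outside this rule, such as those below the reference level, were named after their values were seen. Alternatives covered the filter, probe sets, normalization, variance model, replicate block and each array left out. The replicate numbers are not stated to pair arrays, and p-values measure the spread between these arrays.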

Additional observations from a re-analysis of the deposited data

Results flagged for a closer look

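In groups of 4 arrays, a value was marked where the gap between the highest or the lowest array and its neighbour exceeded Dixon's 95% critical value as a share of the group's range. Of 585 such groups, for 195 named genes at 3 times, 43 (7.35%) were marked; chance marks about 1 in 20, but many of these genes were named for a wide spread or for likeness to such a gene, so the share is not that of genes chosen without regard to spread. No explanation was tested for any of them.

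The array 1 day replicate 3 accounted for 14, all as the highest of its time. Transporter and channel genes read 9.41 for Kcnj13, 10.12 for Slc13a4, 9.24 for Slc6a12, 9.91 for Slc6a13, 11.03 for Slc6a20a and 8.5 for Slc22a6. Genes of matrix and matrix-binding proteins read 10.07 for Fmod, 9.18 for Prg4, 8.83 for Itih2 and 11.36 for Vtn. The transcription factor gene Osr1 read 9.29 and the endothelial cadherin gene Cdh5 9.53. The pituitary hormone genes Gh and Prl read 10.98 and 8.46.

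The array 4 days replicate 4 had 6. It was the highest for Kcnj13 at 8.89, Ogn at 8.79, Itih2 at 8.63, Slc6a12 at 8.95 and Slc22a6 at 8.29, and the lowest for Prkx at 10.05, in a group whose whole range was 0.00976.

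In 1 day replicate 1, which had 7, the highest values were Apoa2 at 8.88, Car8 at 9.01 and Ndrg2 at 14.14. The lowest were the myelin gene Mbp at 12.56, Mt2 at 14.01, the immediate early gene Nr4a1 at 8.72 and Wfs1 at 10.48.

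The remaining 16 were scattered over 8 arrays, with 1 to 3 in each. Among 6 h arrays, replicate 1 was lowest for Fndc3c1 at 6.29 and Lcn2 at 6.67, replicate 2 was lowest for C1qc at 9.76 and highest for Kdm5d at 10.05, replicate 3 was lowest for Mc4r at 8.53 and Myh6 at 6.98, and replicate 4 was highest for Acta1 at 8.79. At 1 day, replicate 2 was lowest for Lcn2 at 6.61 and Tbr1 at 7.37. At 4 days, replicate 1 was lowest for Vip, a peptide of the clock nucleus, at 7.59 and for Rabgap1 at 11.4. Replicate 2 was lowest for Drd1 at 8.23, Pdgfrb at 9.74 and Slc17a8 at 6.99, and replicate 3 was highest for Prl at 7.14 and Tnp1 at 6.35.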

How the results depend on the processing

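The count of genes differing between the 3 DMSO times (0 at an adjusted p under 0.05, with 1756 genes at an unadjusted p under 0.05) became 9 with limma-trend (Arf1, Fabp7, Glra3, Naa20, Nuak1, Penk, Scrg1, Sod1 and Tubb2b) and 2 with a model of 6 groups on all 22 arrays (Mgat2 and Naa20); the cause was not tested. Leaving out each array in turn gave 0 to 1, with Naa20 called without 6 h replicate 3 and Nuak1 without 6 h replicate 4. It stayed 0 with array weights, robust eBayes, the other filters, the mean of probe sets, renormalization and median centring. With the replicate number as a block (replicate block) it was 0, with 2031 genes at an unadjusted p under 0.05. The 12 correlations of residuals between arrays of the same number lay between -0.189 and 0.210 with a median of 0.0607, against -0.0525 for the 36 pairs of other numbers. They were 0.138 to 0.210 for number 1 and 0.0786 to 0.190 for number 2, but not all above 0.1, so the numbers were not taken to pair arrays; 5 of 12 arrays correlated best with their own number. The median within-time SD was 0.0944 with no filter on level, which adds dim genes, and 0.0736 to 0.0833 under the other settings; leaving out 1 array gave 0.0773 to 0.0852. Genes above the reference level in every array numbered 8789 to 13008 over the alternatives, the lowest with the median of all genes as the limit and 10760 with the 99th percentile of the reference families. Averaging the probe sets of a gene, the level moved for 8 of 195 named genes, to 11.58 for Baiap2l1 and 9.88 for Stmn3. Of the 100 highest genes 90 to 100 were kept, and of the 100 most variable 82 to 96. Signal near the reference level limits what can be said of dim genes such as Crh, Prl and Ttr.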
